A study of Mus musculus with 24 samples.

Results

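The genes described here are 31 that carry out or control fatty acid oxidation and ketone body metabolism, including peroxisome proliferator-activated receptors (PPARs) and several of their known targets. They were picked by symbol from a list made with earlier results of these data known, and all 31 were found among the 23329 gene symbols of the deposited expression tables. RNA sequencing covered mouse colon in 24 libraries, 4 in each of 6 groups, all of strain C57Bl/6. Transgenic mice were VilCre-CMVcaNrf2: Cre recombinase driven by the villin promoter, which is active in intestinal epithelium, switches on a constitutively active NRF2 (caNrf2) placed under the CMV promoter. Control mice were VilCre, so every mouse carried the Cre and the groups differ in the caNrf2 allele. The 6 groups were epithelial cells of transgenic mice, epithelial cells of control mice, colon wall of transgenic mice given Dextran Sulfate Sodium (DSS, a polymer that injures the colon lining), colon wall of control mice given DSS, untreated colon wall of transgenic mice and untreated colon wall of control mice. A wall sample was a 10 mm piece taken 10 to 20 mm from the rectum and holds epithelium, muscle, connective tissue and immune cells together. No age, DSS dose, DSS duration or method of epithelial separation is named in the sources used here. No distance from the rectum is given for the epithelial cells.

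In mitochondrial fatty acid oxidation, acyl groups enter the matrix through the carnitine shuttle and are shortened in a cycle of dehydrogenation, hydration, a further dehydrogenation and thiolysis. Colonocytes are known for drawing much of their energy from oxidising butyrate, a short-chain fatty acid made by gut bacteria, and intestinal epithelium can also make ketone bodies. PPAR alpha and PPAR gamma are nuclear receptors that bind DNA with a retinoid X receptor at paired copies of the hexamer AGGTCA and switch on many of these genes when fatty acids bind them.

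RefSeq promoter windows (mouse build GRCm38.p6, 250 bases before to 50 bases after a transcript start) were matched by symbol for 27 of the 31 genes, giving 30 windows. Acaa2, Acat1, Angptl4 and Decr1 were not among them. The hexamer AGGTCA, searched on both strands, was present in 8 of the 30 windows (26.7%), against 16.3% of all 32851 windows of the same length. The windows with a match belonged to Acadm, Acadvl, Cd36, Cpt1a, Echs1, Fabp1 and Pparg. A direct repeat of AGGTCA with 1 base between the copies was in 0 of the 30 windows and in 0.0396% of all windows. The core of the antioxidant response element, TGACNNNGC on either strand, was in 3 of the 30 (10%), against 12.4% of all windows. The windows of Hadha and Hadhb, which are transcribed away from each other, share 228 bases. A match says only that these letters are present. The 250 bases before the start are shown for 4 genes with a match whose behaviour under DSS differed, described further on: Acadm and Echs1 fell, Cd36 rose and Cpt1a did not pass the test. Each reads 5′ to 3′ along the gene's own strand, and the capitals mark AGGTCA or its complement TGACCT. The match lies at positions -249 to -244 from the start in Acadm, -83 to -78 in Echs1, -94 to -89 in Cpt1a and -228 to -223 in Cd36. The windows are chr3:153944644-153944893 on the minus strand, chr7:140116422-140116671 on the minus strand, chr19:3323051-3323300 on the plus strand and chr5:17835897-17836146 on the minus strand, in the same order of genes. The Cd36 start used by RefSeq here lies inside the span of that gene's 5 deposited transcripts, not at its outer end.
Acadm: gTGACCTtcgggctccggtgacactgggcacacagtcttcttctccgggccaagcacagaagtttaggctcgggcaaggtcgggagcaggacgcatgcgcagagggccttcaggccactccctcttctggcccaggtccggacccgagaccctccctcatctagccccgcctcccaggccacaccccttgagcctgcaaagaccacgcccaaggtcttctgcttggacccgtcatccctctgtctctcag
Echs1: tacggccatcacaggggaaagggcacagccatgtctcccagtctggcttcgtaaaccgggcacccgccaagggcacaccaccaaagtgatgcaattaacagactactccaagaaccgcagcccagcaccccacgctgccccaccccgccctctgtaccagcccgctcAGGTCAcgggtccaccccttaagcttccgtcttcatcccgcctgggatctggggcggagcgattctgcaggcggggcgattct
Cpt1a: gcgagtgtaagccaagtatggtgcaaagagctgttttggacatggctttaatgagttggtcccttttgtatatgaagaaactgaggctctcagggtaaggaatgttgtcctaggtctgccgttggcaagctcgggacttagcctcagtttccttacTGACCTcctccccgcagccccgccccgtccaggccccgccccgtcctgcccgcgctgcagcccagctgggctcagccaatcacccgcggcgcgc
Cd36: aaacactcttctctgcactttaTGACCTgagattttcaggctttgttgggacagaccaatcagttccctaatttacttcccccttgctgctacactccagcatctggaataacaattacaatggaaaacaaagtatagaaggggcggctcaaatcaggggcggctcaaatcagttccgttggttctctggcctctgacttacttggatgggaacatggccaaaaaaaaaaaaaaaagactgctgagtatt

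Summed expected counts, the non-whole read counts that RSEM assigns to transcripts, ran from 6683785 to 15399870 per epithelial library and from 20232317 to 154335999 per wall library. Values below are CPM, read counts scaled to the size of each library, unless said otherwise, and a gene was called changed when edgeR's quasi-likelihood test gave a Benjamini-Hochberg adjusted p below 0.05 over all genes tested. Nothing says that the 4 libraries of a group came from separate animals, so p-values measure the spread between these samples, which may be technical. Nfe2l2, the gene of NRF2, ran from 219 to 335 CPM in transgenic against 134 to 179 CPM in control epithelial cells, and every transgenic library lay above every control library; the difference was not called (log2 fold change 0.88 ± 0.185, edgeR adjusted p = 0.219). Summed smooth muscle markers were 108.6 to 167.2 CPM in epithelial libraries against 12750 to 18040 CPM in untreated wall. The sum of 12 pan-epithelial markers was 9167 to 12325 CPM in 6 of the 8 epithelial libraries, below every untreated wall library (13042 to 23242 CPM). The most abundant markers weigh most in this sum. Taken singly, 2 of the 12 were called higher and 0 lower in transgenic epithelial cells than in wall (median log2 fold change -0.04). In control mice 2 were called higher and 1 lower (median -0.11). Of 12 absorptive colonocyte markers, 7 were called lower and 1 higher in epithelial cells than in untreated wall in both genotypes. Of 7 goblet cell markers tested, 5 were called higher in both. A pair of epithelial libraries, transgenic replicate 1 and control replicate 3, stood apart from the other 6. The summed level of 12 absorptive colonocyte markers was 22961 CPM in transgenic replicate 1 and 20934 CPM in control replicate 3, against 1398 to 5064 CPM in the other 6 epithelial libraries. The main epithelial results are therefore also given without this pair, which was picked by its marker sums in these same data.

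Within the epithelial cells, the pair of libraries rich in colonocyte markers also held most of these genes at their highest level. In both libraries 25 of the 31 genes lay above all other 6 epithelial libraries, the exceptions being Cpt1a, Eci2, Oxct1, Pdk4, Angptl4 and Cd36. The same count over all genes was not made, so it does not show that these genes differ from others in this respect. Slc25a20, the mitochondrial carnitine-acylcarnitine carrier, was at 290.4 CPM in transgenic replicate 1 and 230.5 CPM in control replicate 3, against 43.0 to 102 CPM in the other 6. Hadh, the 3-hydroxyacyl-CoA dehydrogenase for medium and short chains, was at 508 CPM in transgenic replicate 1 and 516 CPM in control replicate 3, against 204 to 311 CPM in the others. Endothelial markers moved the other way, with sums of 15.95 CPM in transgenic replicate 1 and 13.28 CPM in control replicate 3, against 61.6 to 138.6 CPM in the other 6. The part of cell makeup in these differences was not tested.

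**Figure D1:**
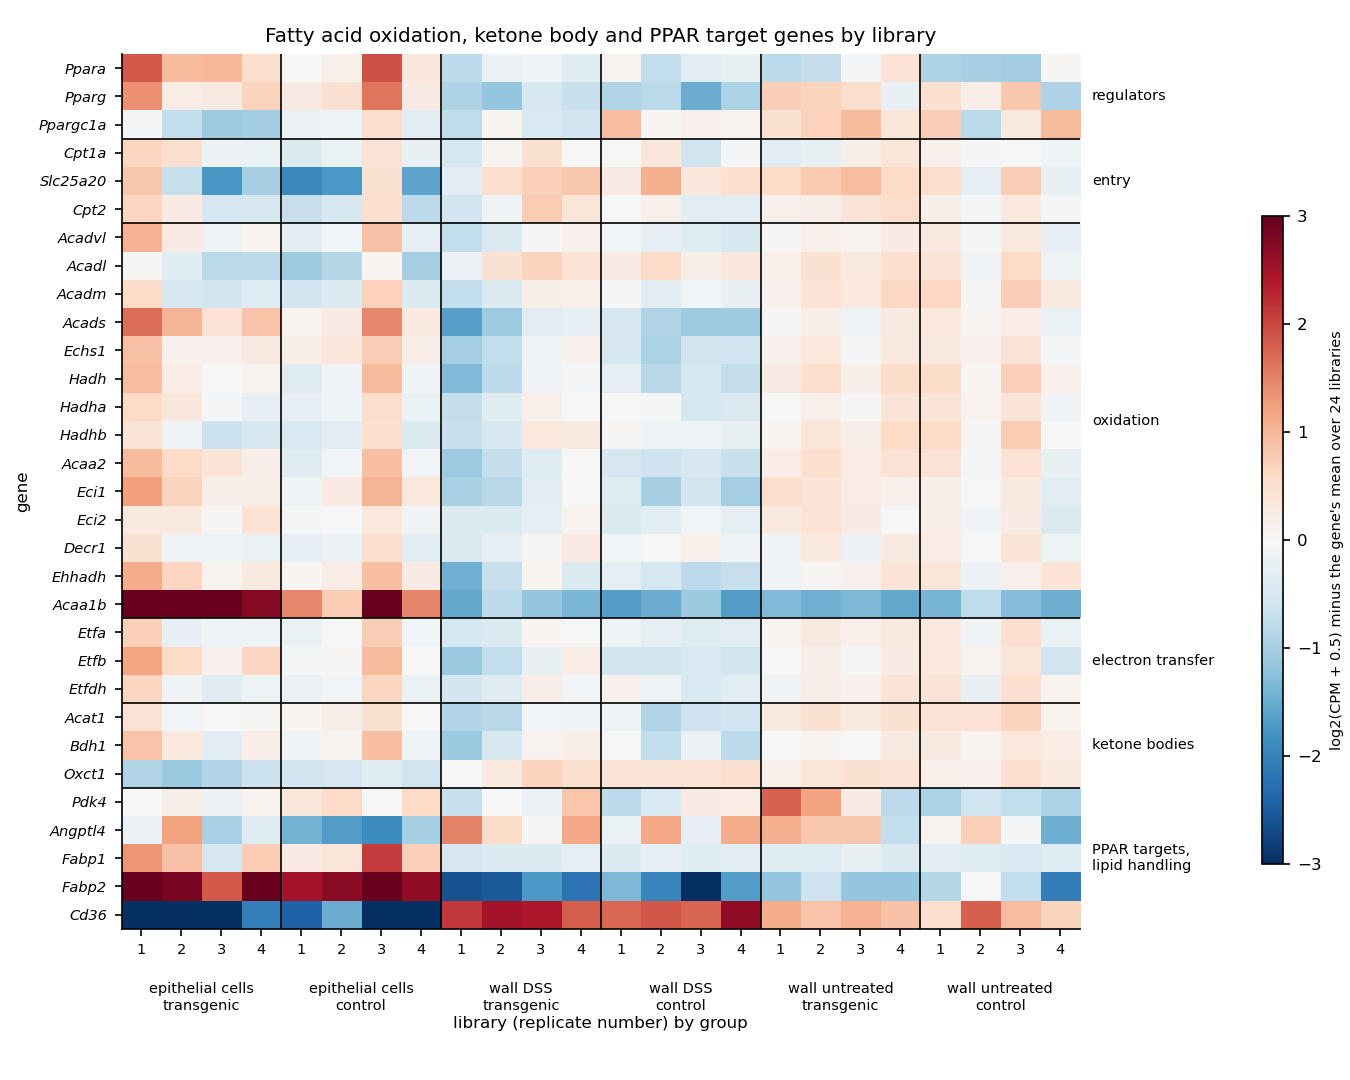
Level of each of the 31 genes (rows, ordered by role) in each of the 24 libraries (columns, by group), as log2(CPM + 0.5) minus the gene's mean over all libraries, with colours running from -3 to 3. Transgenic replicate 1 and control replicate 3 of the epithelial cells stand out over most oxidation genes, and Cd36 is low in every epithelial library.

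Levels between genes were compared in TPM, a level scaled for transcript length and library size. Fabp2, the intestinal fatty acid binding protein, had the highest mean TPM of the 31 genes in epithelial cells, at 861.28 ± 573.44 TPM in transgenic and 881.39 ± 639.94 TPM in control mice (SD, n = 4 each). Etfb, the beta subunit of the electron transfer flavoprotein, came next at 456.94 ± 95.98 TPM in transgenic and 351.91 ± 90.79 TPM in control epithelial cells, a gap smaller than the SD of Fabp2. Without the pair that stands apart, Fabp2 was at 591.42 ± 237.3 TPM in transgenic and 562.16 ± 53.39 TPM in control cells (SD, n = 3 each). Etfb was then at 417.42 ± 66.68 TPM in transgenic cells, still within the spread of Fabp2, and at 306.99 ± 16.1 TPM in control cells, outside it. Hadh followed in epithelial cells, at 374.29 ± 77.56 TPM in transgenic and 328.94 ± 115.80 TPM in control mice, within the spread of Etfb. In untreated wall Hadh had the highest mean, at 341.31 ± 31.84 TPM in transgenic and 335.24 ± 40.65 TPM in control mice, and Fabp2 was at 36.69 ± 5.27 TPM in transgenic and 43.27 ± 24.08 TPM in control wall. In DSS-treated wall the highest means were those of Acadl, the long-chain acyl-CoA dehydrogenase, at 261.22 ± 45.99 TPM in transgenic mice, and of Slc25a20, at 276.33 ± 77.65 TPM in control mice. The order of these 2 genes is within their spread, with Slc25a20 at 246.53 ± 47.36 TPM in transgenic and Acadl at 263.07 ± 37.25 TPM in control mice. Ppara was low everywhere, between a mean of 1.995 TPM in untreated control wall and 7.62 TPM in transgenic epithelial cells. Pparg was higher in every group, from a mean of 32.12 TPM in DSS-treated control wall to 103.91 TPM in control epithelial cells.

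The summed TPM of the 31 genes, in which the abundant genes weigh most, had a median of 4162 (3320 to 6360) in transgenic and 3519 (3094 to 6318) in control epithelial cells. In DSS-treated wall it was 2806 (2414 to 3308) in transgenic and 2858 (2520 to 3118) in control mice. In untreated wall it was 3349 (3197 to 3665) in transgenic and 3235 (2896 to 3317) in control mice. The DSS-treated and untreated ranges overlap in both genotypes, and so do the transgenic and control ranges in every tissue and treatment.

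**Figure D2:**
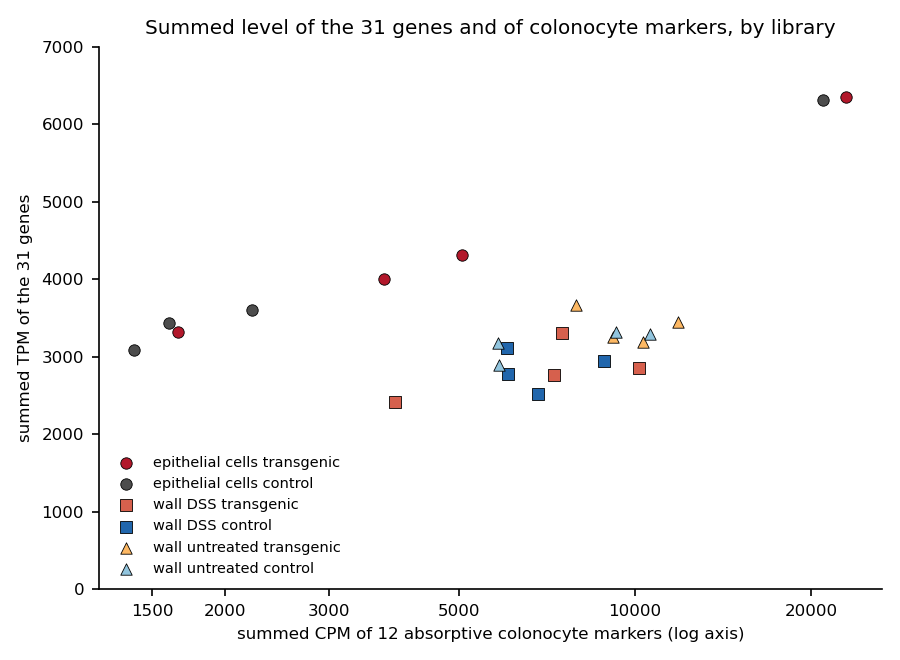
Summed TPM of the 31 genes (vertical axis) against the summed CPM of 12 absorptive colonocyte markers (horizontal axis), 1 point per library, coloured by group. The pair of epithelial libraries with 20934 and 22961 CPM of markers has the highest gene sums; the points share their library scaling, and no test was made.

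DSS lowered a set of these genes in the colon wall of both genotypes and raised Cd36. In transgenic wall 14 of the 29 genes tested were called (48.3%), 13 lower and 1 higher, and in control wall 11 of 29 (37.9%), 10 lower and 1 higher. DSS changed a large share of all 16074 genes tested, so these counts stand against a background of 41.2% called in transgenic wall (23.1% higher, 18.1% lower) and 39.2% in control wall (23.1% higher, 16.1% lower). The share called in either direction is thus near the background, while 44.8% of the 29 genes fell in transgenic and 34.5% in control wall, above the shares of all genes that fell. The median log2 fold change of the 29 genes was -0.39 in transgenic wall, against 0.01 over all genes, and -0.33 in control wall, against 0.06 over all genes. Fabp1 and Acaa1b had too few reads in the wall to be tested. In bulk tissue, fewer cells of a type and less RNA per cell cannot be told apart.

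The cell makeup of the wall moved with DSS as well. Of 12 endothelial markers 11 were called higher in each genotype, with sums of 371.8 to 462.6 CPM in DSS-treated against 150.6 to 197.7 CPM in untreated transgenic wall, and 344.8 to 473.7 CPM in DSS-treated against 151.6 to 178.5 CPM in untreated control wall. All 10 fibroblast markers were called higher in both genotypes. Of 12 pan-epithelial markers 1 was called lower in transgenic and 3 in control wall, and their sums overlapped: 8566 to 20420 CPM in DSS-treated against 14410 to 18040 CPM in untreated transgenic wall, and 10820 to 13950 CPM in DSS-treated against 13040 to 23240 CPM in untreated control wall. Of 12 absorptive colonocyte markers 1 was called higher and 4 lower in transgenic wall, and 1 higher and 1 lower in control wall. With the summed epithelial markers added as a term to the fit, an alternative chosen after seeing the data, 12 genes were called in transgenic wall (1 higher, 11 lower) and 9 in control wall (4 higher, 5 lower), against 37.2% of all genes in transgenic and 28.3% in control wall under that term. The 5 that stayed lower in control wall were Acads, Acat1, Echs1, Hadh and Pparg, and the 4 higher were Acadl, Cd36, Oxct1 and Slc25a20.

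**Figure D3:**
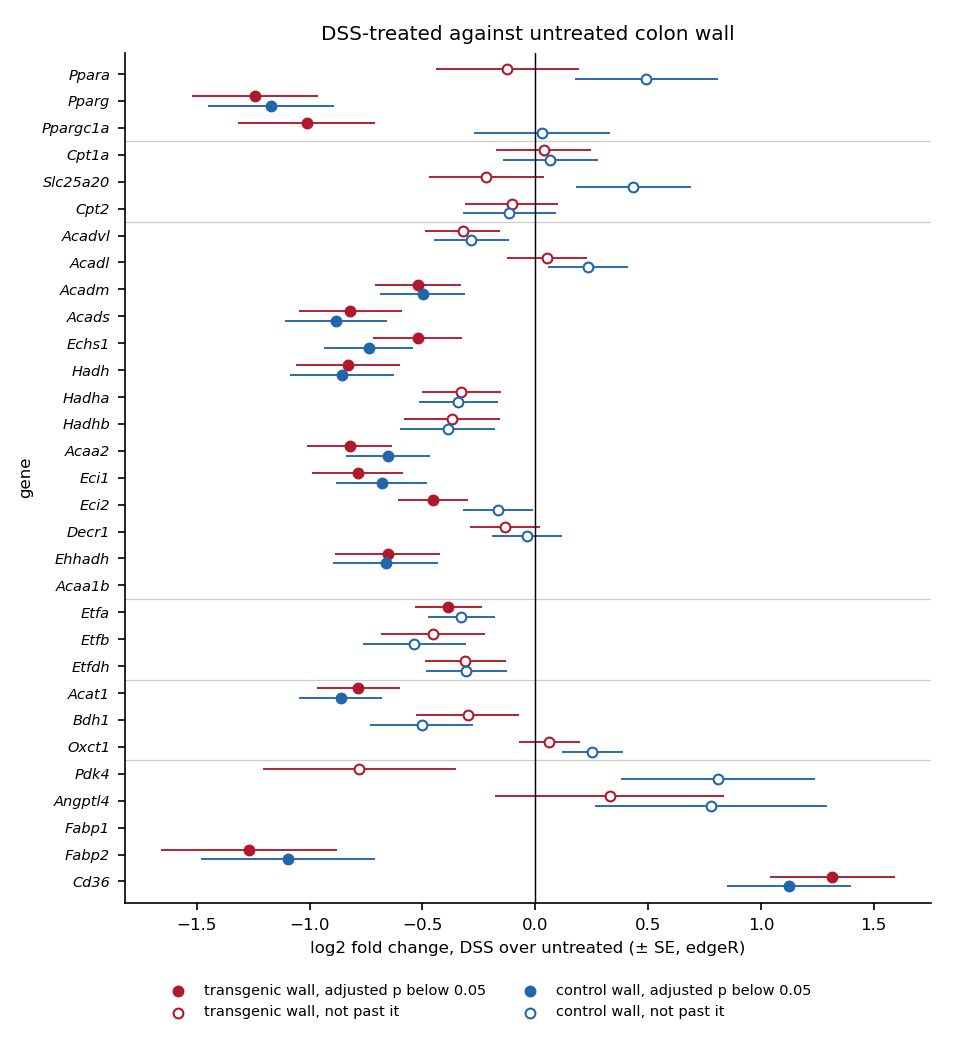
Log2 fold change (DSS over untreated wall, horizontal axis) with its standard error for each gene tested, in transgenic and control mice; filled points passed the adjusted p threshold of 0.05. Most filled points lie left of 0, and Cd36 lies right of 0 in both genotypes.

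Among the regulators, Pparg, the PPAR gamma gene (chromosome 6, 115361221 to 115490401, mm10, plus strand), fell in both genotypes. It had 31.7, 26.9, 43.2 and 38.0 CPM in DSS-treated transgenic wall against 102, 96.2, 87.8 and 52.2 CPM in untreated transgenic wall, and the groups do not overlap. In control mice it had 32.4, 34.5, 21.2 and 31.4 CPM with DSS against 84.4, 69.1, 106 and 31.6 CPM untreated, where only untreated replicate 4 reaches the DSS-treated libraries. The log2 fold change was -1.24 ± 0.279 in transgenic (SE, edgeR adjusted p = 0.00271) and -1.17 ± 0.279 in control wall (adjusted p = 0.00419). Ppargc1a, the PPAR gamma coactivator known for driving mitochondrial biogenesis (chromosome 5, 51454249 to 51553921, minus strand), was called in transgenic wall alone, at -1.01 ± 0.304 (edgeR adjusted p = 0.0149). Its transgenic libraries held 24.1, 42.6, 29.9 and 27.3 CPM with DSS against 56.1, 66.9, 79.7 and 52.8 CPM untreated, without overlap. Its control libraries held 78.8, 42.6, 45.6 and 44.5 CPM with DSS against 68.8, 23.1, 49.5 and 79.4 CPM untreated, which overlap. The difference between the genotypes in its DSS effect was itself not called (-1.04 ± 0.427, edgeR adjusted p = 0.567). Ppara, the PPAR alpha gene and the lowest of the regulators, was not called in either genotype, with 7.79 to 12.6 CPM in DSS-treated against 7.54 to 18.6 CPM in untreated transgenic wall, and 8.05 to 14.8 CPM against 6.42 to 14.04 CPM in control wall.

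The entry of fatty acids into mitochondria did not pass the test. Cpt1a, the outer membrane carnitine palmitoyltransferase usually described as rate-limiting for long-chain oxidation (chromosome 19, 3323301 to 3385733, plus strand), had 233, 358, 458 and 339 CPM in DSS-treated against 267, 289.5, 382 and 434 CPM in untreated transgenic wall. In control mice it had 336, 422, 221 and 321 CPM with DSS against 370.2, 321, 333 and 306 CPM untreated. Its libraries overlap throughout, with log2 fold changes of 0.04 ± 0.210 in transgenic (edgeR adjusted p = 0.899) and 0.07 ± 0.210 in control wall (adjusted p = 0.821). The sign of this value turned to below 0 under several alternatives in both genotypes. Cpt2, the inner membrane transferase, and Slc25a20, the carrier between them, were not called in either genotype.

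Within the oxidation cycle, enzymes for short and medium chains account for many of the calls. Whether they fell more than the long-chain enzymes was not tested. Acads, the short-chain acyl-CoA dehydrogenase that acts on butyryl-CoA (chromosome 5, 115110299 to 115119313, minus strand), had 47.7, 69.6, 119 and 121 CPM in DSS-treated against 153, 172, 135 and 180.3 CPM in untreated transgenic wall. In control mice it had 105, 79.0, 71.5 and 71.0 CPM with DSS against 187, 156, 174 and 130.0 CPM untreated. Neither genotype's groups overlap, and the log2 fold change was -0.82 ± 0.227 in transgenic (edgeR adjusted p = 0.00948) and -0.88 ± 0.227 in control wall (adjusted p = 0.00661). Hadh, described above (chromosome 3, 131233424 to 131272037, minus strand), had 106, 154, 249.6 and 261 CPM in DSS-treated against 316, 376, 308 and 391 CPM in untreated transgenic wall. In control mice it had 219, 149, 186 and 162 CPM with DSS against 393, 276, 435 and 294 CPM untreated. Again the groups do not overlap in either genotype, with log2 fold changes of -0.83 ± 0.231 (edgeR adjusted p = 0.00972) in transgenic and -0.86 ± 0.231 (adjusted p = 0.00853) in control wall. In the transgenic mice given DSS, replicates 1 and 2 held less than replicates 3 and 4 of both enzymes.

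Acadm, the medium-chain acyl-CoA dehydrogenase, fell by 0.52 on the log2 scale in transgenic wall (SE 0.190, edgeR adjusted p = 0.0371) and by 0.50 in control wall (SE 0.190, adjusted p = 0.0464). Its transgenic libraries held 80.5, 99.5, 152 and 149 CPM with DSS against 147, 179.7, 169 and 207 CPM untreated, so DSS-treated replicates 3 and 4 reach the untreated range. This call rests on single libraries: it was lost without DSS-treated transgenic replicate 1 or 2 or untreated transgenic replicate 2, 3 or 4 (adjusted p = 0.0594 to 0.109), and in control wall without any DSS-treated replicate or untreated replicate 1 or 3 (0.0565 to 0.123). Echs1, the short-chain enoyl-CoA hydratase, had 60.3, 72.7, 113 and 133 CPM in DSS-treated against 133, 153, 118 and 149.8 CPM in untreated transgenic wall, with DSS-treated replicate 4 reaching the untreated range and a log2 fold change of -0.52 ± 0.197 (edgeR adjusted p = 0.0440). In control mice it had 86.5, 62.9, 83.5 and 81.4 CPM with DSS against 151, 133, 164 and 117 CPM untreated, without overlap, and a log2 fold change of -0.74 ± 0.198 (adjusted p = 0.00832). The call in transgenic wall was lost without DSS-treated replicate 1 or 2 or untreated replicate 1, 2 or 4 (0.0669 to 0.135). Acaa2, the mitochondrial 3-ketoacyl-CoA thiolase that closes the cycle, fell by 0.82 on the log2 scale in transgenic (SE 0.188, edgeR adjusted p = 0.00301) and by 0.65 in control wall (SE 0.187, adjusted p = 0.0121). Its libraries held 50.05 to 107 CPM with DSS against 126 to 152 CPM untreated in transgenic wall, and 67.6 to 76.6 CPM against 92.7 to 146 CPM in control wall, with no overlap in either.

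Eci1, a mitochondrial isomerase needed for unsaturated fatty acids, fell by 0.79 on the log2 scale in transgenic (SE 0.201, edgeR adjusted p = 0.00592) and by 0.68 in control wall (SE 0.201, adjusted p = 0.0139), and no DSS-treated library reached an untreated one of its genotype. Eci2, a related isomerase, was called in transgenic wall at -0.45 ± 0.154 (edgeR adjusted p = 0.0274), with 40.2 to 57.8 CPM in DSS-treated against 53.7 to 71.4 CPM in untreated libraries. In control wall it held 39.7 to 50.6 CPM against 39.9 to 64.1 CPM and was not called. Ehhadh, the peroxisomal bifunctional enzyme and a known PPAR alpha target, fell by 0.65 on the log2 scale in transgenic (SE 0.232, edgeR adjusted p = 0.0333) and by 0.66 in control wall (SE 0.232, adjusted p = 0.0325). Both Ehhadh calls and the Eci2 call were lost without single libraries. For Ehhadh these were DSS-treated replicates 1 and 2 and untreated replicates 3 and 4 in transgenic mice (adjusted p = 0.0603 to 0.0885), and DSS-treated replicates 2, 3 and 4 and untreated replicates 1 and 4 in control mice (0.0606 to 0.0801). For Eci2 they were DSS-treated replicates 2 and 3 and untreated replicates 1, 2 and 3 (0.054 to 0.0802). The enzymes for long chains, Acadl, Acadvl, Hadha and Hadhb, were not called in either genotype, and neither was Decr1, a reductase for polyunsaturated chains. With limma voom Acadvl and Hadha passed in transgenic wall. In control wall voom called 21 of the genes described here (18 lower), against 11 (10 lower) with edgeR. Over all genes voom called 9501 there, against 6300 with edgeR. In control wall mean CPM were 136.7 with DSS against 179.0 untreated for Acadvl, 235.4 against 320.1 for Hadha and 179.7 against 253.8 for Hadhb. In transgenic wall the same genes held 145.2 against 184.8, 240.9 against 307.9 and 184.0 against 241.7 CPM. Acadl was at 252.1 against 231.4 CPM in control and 258.4 against 254.0 CPM in transgenic wall. Reads of Hadha may include some from Fam59b, whose exons overlap it on the opposite strand, as the strand setting of the counting is not given.

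The electron transfer flavoprotein passes electrons from the acyl-CoA dehydrogenases to the respiratory chain. Of its genes, Etfa, the alpha subunit, was called in transgenic wall at -0.39 ± 0.148 (edgeR adjusted p = 0.0464), with 82.8, 89.0, 125 and 118 CPM in DSS-treated against 125, 146, 134 and 148 CPM in untreated libraries. The call was lost without any untreated transgenic library or without DSS-treated replicate 1 or 2 (adjusted p = 0.0518 to 0.132). In control wall Etfa was not called, and it passed without untreated replicate 4 (adjusted p = 0.0269), with scaling to library size alone and with limma voom. Etfb was not called in either genotype, with -0.54 ± 0.229 in control wall (edgeR adjusted p = 0.074); it passed in control wall without untreated replicate 4 (0.0133) and in transgenic wall without DSS-treated replicate 4 (0.0119). Acadvl also passed in transgenic wall without DSS-treated replicate 4 (0.0394). Etfdh, the oxidoreductase that hands the electrons to ubiquinone, was not called.

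Of the ketone body genes, Acat1, the mitochondrial acetoacetyl-CoA thiolase that works in both making and using ketone bodies (chromosome 9, 53580522 to 53610350, minus strand), showed a clear fall. It had 84.5, 86.2, 146 and 143 CPM in DSS-treated against 189, 215, 187 and 213 CPM in untreated transgenic wall, and 139.6, 83.1, 100.4 and 102 CPM against 209, 209.6, 245 and 167 CPM in control wall. The groups do not overlap in either genotype. The log2 fold change was -0.78 ± 0.185 in transgenic (edgeR adjusted p = 0.00366) and -0.86 ± 0.185 in control wall (adjusted p = 0.00223). Bdh1, which converts acetoacetate to beta-hydroxybutyrate and back, had 63.6, 97.8, 148 and 157 CPM in DSS-treated against 137, 142, 138 and 166 CPM in untreated transgenic wall and was not called (-0.30 ± 0.227, edgeR adjusted p = 0.299). In control wall it was at -0.50 ± 0.227 (adjusted p = 0.088) and passed without DSS-treated replicate 1 (0.0438). Oxct1, which activates acetoacetate for use as fuel, was not called, with 289 to 454 CPM in DSS-treated against 316 to 390.4 CPM in untreated transgenic wall, and 373 to 397 CPM against 312 to 407 CPM in control wall. Its exons overlap those of BC037032 on the opposite strand.

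The PPAR targets of lipid handling did not move together. Cd36, a fatty acid translocase that is also abundant in endothelial cells, adipocytes and macrophages (chromosome 5, 17781690 to 17888959, minus strand), rose in both genotypes. It had 40.1, 51.8, 49.4 and 32.0 CPM in DSS-treated against 19.7, 16.4, 18.6 and 16.6 CPM in untreated transgenic wall, without overlap. In control mice it had 29.9, 33.5, 30.9 and 58.2 CPM with DSS against 12.6, 31.9, 17.2 and 14.2 CPM untreated, where untreated replicate 2 lies within the DSS-treated range. The log2 fold change was 1.31 ± 0.277 in transgenic (edgeR adjusted p = 0.00181) and 1.12 ± 0.276 in control wall (adjusted p = 0.00503). Without replicate 4 of every wall group, whose deposited files carry a separate run of numbers, the control value was 0.68 (adjusted p = 0.0573). Beside the endothelial sums given above, adipocyte markers summed to 364.5 to 575.3 CPM in DSS-treated against 94.9 to 266.2 CPM in untreated transgenic wall (4 of 12 called higher), and to 153.1 to 320.6 CPM against 74.4 to 559.2 CPM in control wall (2 of 12 called higher). The 559.2 CPM was untreated control replicate 2, against 84.4, 74.4 and 110.0 CPM in replicates 1, 3 and 4. The median log2 fold change of the 12 adipocyte markers was 2.32 in transgenic and -0.44 in control wall. Macrophage and monocyte markers were called higher for 8 of 9 tested in each genotype, with sums of 344.4 to 583.4 CPM in DSS-treated against 185.5 to 273.3 CPM in untreated transgenic wall, and 310.9 to 875.6 CPM against 177.5 to 287.8 CPM in control wall. The part of these cells in the rise of Cd36 was not tested.

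Fabp2 (chromosome 3, 122895392 to 122899506, plus strand) fell in both genotypes. It had 3.85, 4.14, 7.54 and 5.20 CPM in DSS-treated against 11.4, 16.8, 11.4 and 11.4 CPM in untreated transgenic wall, and 9.95, 6.22, 2.72 and 7.82 CPM against 14.2, 26.3, 15.4 and 5.79 CPM in control wall. The groups do not overlap in transgenic mice, whereas in control mice untreated replicate 4 lies among the DSS-treated libraries. The log2 fold change was -1.27 ± 0.388 in transgenic (edgeR adjusted p = 0.0163) and -1.09 ± 0.385 in control wall (adjusted p = 0.0333). Of 8 small-intestine enterocyte markers tested, 5 were called lower in transgenic and 3 in control wall. The sums of that list were 328.3 to 546.9 CPM in DSS-treated against 694.7 to 1014 CPM in untreated transgenic wall, and 555 to 582.5 CPM against 557.1 to 1126 CPM in control wall. Their part in the fall of Fabp2 was not tested. The transgenic call was lost without untreated replicate 2 (adjusted p = 0.0505), and the control call without untreated replicate 1 or 2 or DSS-treated replicate 2 or 3 (0.0528 to 0.147). Pdk4, the pyruvate dehydrogenase kinase that is a classic PPAR target, was not called in either genotype, with a fitted value of -0.78 ± 0.427 in transgenic (edgeR adjusted p = 0.153) and 0.81 ± 0.430 in control wall (adjusted p = 0.145). The transgenic value passed without untreated or DSS-treated replicate 4 (0.0256 to 0.042). Angptl4, a secreted inhibitor of lipoprotein lipase, was not called, at 0.78 ± 0.512 in control wall (edgeR adjusted p = 0.237).

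**Figure D4:**
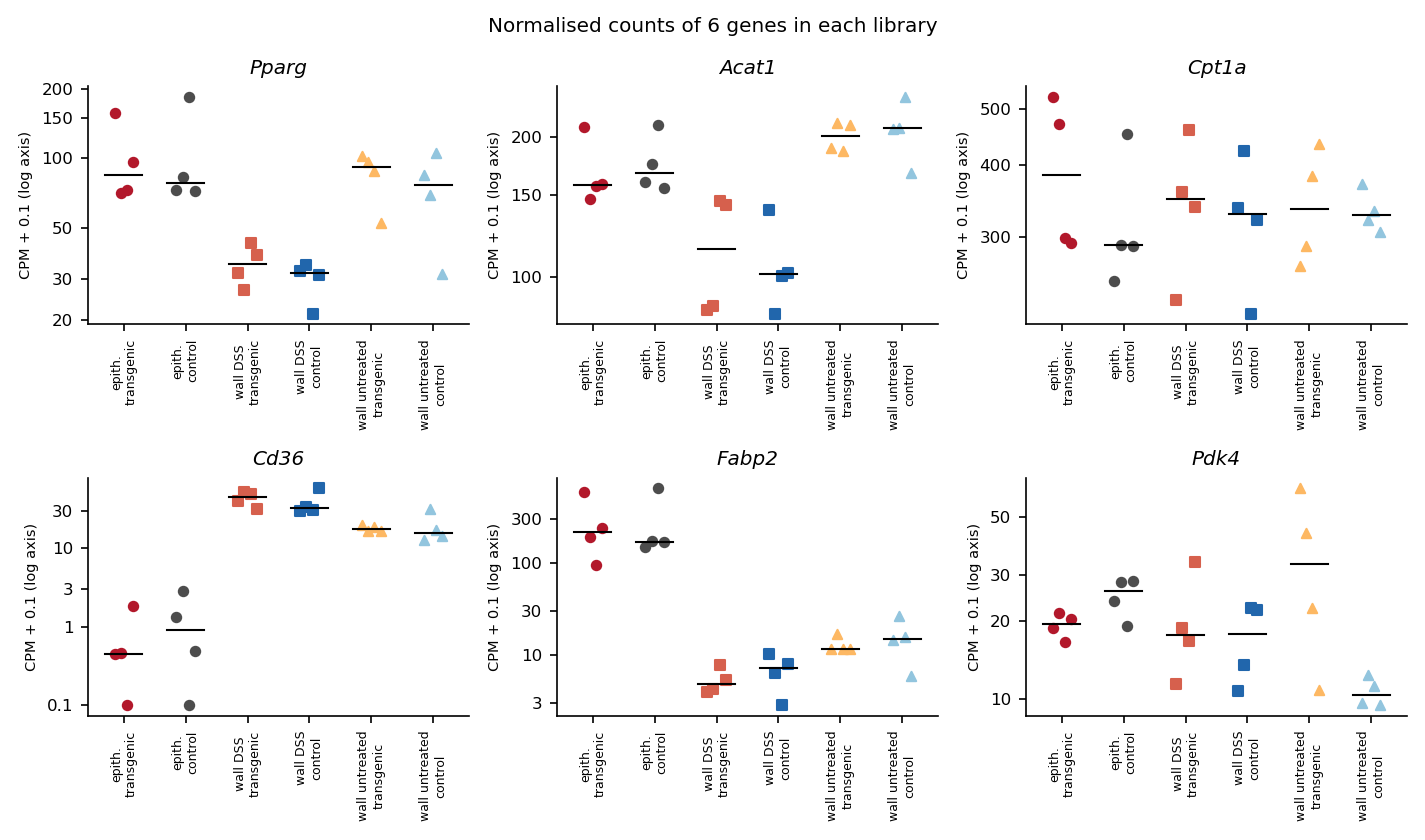
CPM + 0.1 on a log axis for Pparg, Acat1, Cpt1a, Cd36, Fabp2 and Pdk4 in every library of the 6 groups, with a line at each group's median. Pparg and Acat1 are lower in most DSS-treated than untreated wall libraries, Cd36 is higher with DSS and near 0 in epithelial cells, and Pdk4 spreads from 10.7 to 64.6 CPM in untreated transgenic wall.

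All 11 genes called in control wall were also called in transgenic wall, and Eci2, Etfa and Ppargc1a were called in transgenic wall alone. A call in 1 genotype does not show that the genotypes differ, and the test of that difference called 0 of the 29 genes and 0% of all genes (edgeR, smallest adjusted p among the 29 = 0.542). At an unadjusted p below 0.05 it gave 2 of the 29 and 1279 of the 16074 genes; DESeq2 called 0 of the 29 and 36 of all genes. The smallest p-values belonged to Pdk4 (-1.59 ± 0.606, adjusted p = 0.542), Ppargc1a and Slc25a20 (-0.65 ± 0.36). In the count of genes without overlap between DSS-treated and untreated libraries, 9 fell in each genotype, where 17.3% of all genes did so in transgenic and 18.9% in control wall.

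With all libraries in the fit, no effect of caNrf2 on these genes passed the test in edgeR. In untreated wall 0 of the 29 genes were called, against 0.224% of all genes, and in DSS-treated wall 0 of 29, against 0.0933%. At an unadjusted p below 0.05, edgeR gave 1 of the 29 genes and 1681 of all 16074 genes in untreated wall, and 1 of 29 and 407 of all genes in DSS-treated wall. DESeq2 called 1 of the 29 and 233 of all genes in untreated wall, and 0 of the 29 and 43 of all genes in DSS-treated wall. The median log2 fold change of the 29 genes was 0.09 in untreated wall, against -0.02 over all genes, and 0.04 in DSS-treated wall, against -0.02 over all genes.

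Pdk4 (chromosome 6, 5483351 to 5496278, minus strand) had the smallest p of the 29 genes in untreated wall. It had 64.6, 43.5, 22.3 and 10.7 CPM in transgenic wall against 9.5, 12.3, 11.1 and 9.36 CPM in control wall. Transgenic replicates 1, 2 and 3 lay above every control library, while replicate 4 lay among them. The fitted log2 fold change was 1.77 ± 0.438 (edgeR adjusted p = 0.124). Without transgenic replicate 4 it was 2.06 (adjusted p = 0.0186), and without replicate 4 of every wall group it was 2.03 (adjusted p = 0.0177). With all libraries kept, Pdk4 was the 1 gene of the 29 that DESeq2 called, and it also passed with limma voom. It was not called in the other 15 of 19 alternatives. In DSS-treated wall Pdk4 overlapped, with 11.3, 18.6, 16.6 and 33.5 CPM in transgenic against 10.6, 13.4, 22.3 and 21.9 CPM in control mice. The next smallest p-values in untreated wall were those of Slc25a20 (0.52 ± 0.255) and Eci2 (0.28 ± 0.153). Ppara was at 0.51 ± 0.317 and Angptl4 at 0.71 ± 0.512 (edgeR adjusted p = 0.701). In DSS-treated wall Ppargc1a held 24.1 to 42.6 CPM in transgenic against 42.6 to 78.8 CPM in control mice, with a fitted value of -0.80 ± 0.304 (edgeR adjusted p = 1.0).

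In epithelial cells caNrf2 gave 0 calls among the 29 genes tested and 0% of all 12941 genes. At an unadjusted p below 0.05 edgeR gave 2 of the 29 and 1344 of all genes, and DESeq2 called 0 of the 29 and 163 of all genes. Fabp1 and Cd36 had too few reads there to be tested. Angptl4 had 4.76, 13.3, 2.52 and 4.07 CPM in transgenic against 1.72, 1.35, 1.10 and 2.46 CPM in control cells, at 1.92 ± 0.561 (edgeR adjusted p = 0.313). Oxct1 had 152, 132, 154 and 184 CPM in transgenic against 187, 199.9, 222 and 189 CPM in control cells, at -0.35 ± 0.148 (adjusted p = 0.462). These were the genes without overlap between the groups, 1 of 29 higher and 1 of 29 lower, where 2.69% of all genes were higher and 4.27% lower without overlap. Ppargc1a was at -0.68 ± 0.306 (adjusted p = 0.484), Pdk4 at -0.35 ± 0.161 (adjusted p = 0.5) and Cpt1a at 0.32 ± 0.277 (adjusted p = 0.787).

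Leaving out transgenic replicate 1 and control replicate 3, a choice made from these same data, changed this result. Among the remaining 6 epithelial libraries, 4 of 30 genes tested were called, against 6.43% of all 12994 genes (2.93% higher, 3.49% lower). Colonocyte content was not made equal by this. The summed absorptive colonocyte markers were 5063.7, 1660.5 and 3731.7 CPM in transgenic replicates 2, 3 and 4. They were 1398.0, 1602.8 and 2223.9 CPM in control replicates 1, 2 and 4, and their part in these calls was not tested. Acaa1b, a peroxisomal 3-ketoacyl-CoA thiolase known as a PPAR alpha target, was higher in transgenic cells by 1.97 ± 0.331 (edgeR adjusted p = 0.0163), with 14.3, 13.5 and 10.3 CPM in transgenic against 3.85, 2.23 and 3.89 CPM in control cells. Acaa2 was higher by 0.61 ± 0.134 (adjusted p = 0.0329) and Acads by 0.61 ± 0.14 (adjusted p = 0.0367). Ppargc1a was lower, at -0.71 ± 0.152 (adjusted p = 0.0289), with 24.4, 18.9 and 19.6 CPM in transgenic against 36.3, 36.9 and 32.3 CPM in control cells. The median over the 30 genes was 0.24, against -0.00 over all genes. With the summed colonocyte markers as a term in the fit of all 8 libraries, an alternative chosen after seeing the data, 1 gene was called, Ppargc1a, which was lower. Acaa1b is uncertain because it shares sequence with Acaa1a, and reads may be split between them.

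Fabp2 was much higher in epithelial cells than in the whole wall. Acaa1b was also much higher and Cd36 much lower, but each had too few reads in its lower tissue for a test there. Both passed the read filter of the joint fit through the tissue where they are high, which favours a call. Fabp1 had too few reads for the fits of either tissue alone. In transgenic mice 10 of the 31 genes were called, 7 higher and 3 lower in epithelial cells than in untreated wall, against 43.5% of all 15073 genes (20.0% higher, 23.5% lower). In control mice 8 of 31 were called, 6 higher and 2 lower, against 38.6% of all genes (18.9% higher, 19.7% lower). The share called was thus below the background in both genotypes. Which genes passed in control mice depended on the scaling: with upper quartile or RLE factors Acads was lost and Acadl and Angptl4 passed as lower, giving 5 higher and 4 lower, and none of these genes turned its direction. Since all of the cell types of the wall enter its libraries, each value compares epithelial cells with a mixture. The distance from the rectum is given for the wall alone. Tissue, cell separation and position along the gut therefore cannot be told apart.

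Fabp2 had 590.4, 189, 94.4 and 241 CPM in transgenic epithelial cells against 11.4, 16.8, 11.4 and 11.4 CPM in untreated transgenic wall, and 148, 172, 647 and 166 CPM against 14.2, 26.3, 15.4 and 5.79 CPM in control mice. No library of either tissue reaches the other, and the log2 fold change was 4.64 ± 0.641 in transgenic and 4.44 ± 0.635 in control mice. Cd36 went the other way, with 0.35, 0.36, 0.00 and 1.74 CPM in transgenic epithelial cells against 16.4 to 19.7 CPM in the wall, and 1.23, 2.79, 0.00 and 0.39 CPM against 12.6 to 31.9 CPM in control mice. These are 0 to 35 counts per epithelial library, so the fitted values of -4.86 ± 0.845 in transgenic and -3.85 ± 0.772 in control mice are imprecise. Endothelial and adipocyte markers, genes of cells that hold Cd36, summed to 13.3 to 138.6 and 27.2 to 95.3 CPM in epithelial libraries, against 150.6 to 197.7 and 74.4 to 559.2 CPM in untreated wall. Adipoq and Plin1, which define adipocytes, were at 0 in every epithelial library.

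Acaa1b, with the uncertainty named above, was higher in epithelial cells: 37.4, 14.3, 13.5 and 10.3 CPM in transgenic cells against 0.05 to 0.14 CPM in wall, and 3.85, 2.23, 25.8 and 3.89 CPM in control cells against 0.08 to 0.45 CPM in wall. Its log2 fold change was 7.79 ± 0.928 in transgenic and 5.99 ± 0.851 in control mice, from 3 to 13 counts per wall library. Fabp1, the liver-type fatty acid binding protein, had 0 to 34 counts in epithelial and 1 to 6 counts in untreated wall libraries and was called higher in both genotypes, but its size is not given because of these low counts. Ppara was higher by 1.57 ± 0.459 in transgenic (edgeR adjusted p = 0.0114) and 1.75 ± 0.463 in control epithelial cells (adjusted p = 0.00673). Acads was higher by 1.15 ± 0.286 in transgenic (adjusted p = 0.00402) and 0.75 ± 0.284 in control mice (adjusted p = 0.0467), and the control call was lost without any of the 4 untreated libraries or epithelial replicate 3 (0.0826 to 0.363).

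Oxct1 was lower in epithelial cells, at -1.05 ± 0.13 in transgenic and -0.57 ± 0.129 in control mice, with 132 to 184 CPM against 316 to 390.4 CPM in transgenic and 187 to 222 CPM against 312 to 407 CPM in control mice. The tissues do not overlap in either genotype. Ppargc1a was called lower in transgenic epithelial cells, at -1.14 ± 0.328 (edgeR adjusted p = 0.0105). Pdk4 was called in control mice alone, at 1.46 ± 0.368 (adjusted p = 0.00515), with 19 to 28.4 CPM in epithelial cells against 9.36 to 12.3 CPM in wall. Etfb (0.77 ± 0.256, adjusted p = 0.0232) and Ehhadh (0.65 ± 0.231, adjusted p = 0.0321) were called higher in transgenic mice. The Etfb call was lost without untreated replicate 1, 2 or 3 or epithelial replicate 1 (0.0571 to 0.117), and the Ehhadh call without untreated replicate 1, 2 or 3 or epithelial replicate 1 or 2 (0.0622 to 0.178). Calls were gained as well: Acadl without epithelial replicate 1 (0.0141) and Pdk4 without untreated replicate 4 (0.00558) in transgenic mice, and in control mice Acadl without untreated replicate 4 or epithelial replicate 3 (0.00138 to 0.0498), Eci1 without epithelial replicate 1 (0.0303) and Angptl4 without untreated replicate 4 (0.0197).

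The pair of epithelial libraries that stand apart set much of this picture. Without them 13 genes were called in each genotype, 6 higher and 7 lower in transgenic and 5 higher and 8 lower in control mice, against 52.8% of all genes in transgenic and 47.6% in control mice. Slc25a20 and 3 enzymes then passed as lower in epithelial cells of both genotypes: Slc25a20 at -1.69 ± 0.261 in transgenic and -1.86 ± 0.265 in control mice, Acadl at -0.85 ± 0.173 in transgenic and -1.03 ± 0.174 in control mice, and Acadm at -0.72 ± 0.153 in transgenic and -0.76 ± 0.153 in control mice. Hadhb was at -0.59 ± 0.185 in transgenic and -0.63 ± 0.185 in control mice. Hadhb is the thiolase-bearing beta subunit of the mitochondrial trifunctional protein. Cpt2 (-0.60) and Hadh (-0.43) passed in control mice alone, and Cpt1a, Acadvl and Hadha passed in neither genotype. Oxct1 was at -1.08 ± 0.131 in transgenic and -0.70 ± 0.129 in control mice and Cd36 at -4.75 ± 0.710 in transgenic and -3.45 ± 0.618 in control mice, called as before. Ppargc1a stayed called in transgenic mice (-1.47 ± 0.309), as did Etfb (0.50 ± 0.18), and Pdk4 in control mice (1.498 ± 0.394). Fabp2 stayed higher, at 3.91 ± 0.381 in transgenic and 3.57 ± 0.376 in control mice, and so did Acaa1b, at 7.17 ± 0.551 in transgenic and 4.46 ± 0.507 in control mice. Ppara was higher by 1.197 ± 0.331 in transgenic and 0.99 ± 0.336 in control mice without the pair. Acads stayed called in transgenic mice (0.83 ± 0.148) and not in control mice (0.26 ± 0.148, edgeR adjusted p = 0.165), and Ehhadh was no longer called in transgenic mice (0.37 ± 0.172, adjusted p = 0.081). The median of the 31 genes was 0.02 in transgenic and -0.17 in control mice without the pair, against 0.21 in transgenic and 0.23 in control mice with it.

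**Figure D5:**
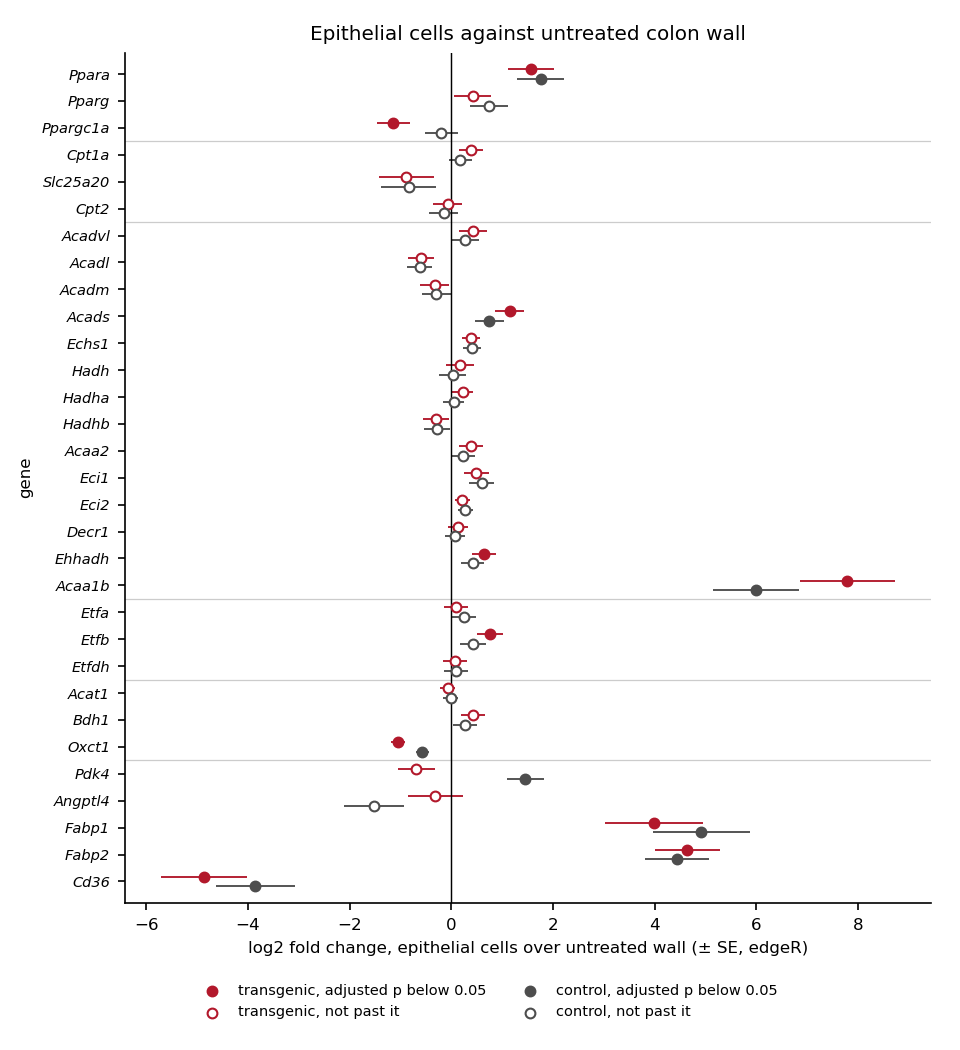
Log2 fold change (epithelial cells over untreated wall, horizontal axis) with its standard error for each gene, in transgenic and control mice; filled points passed the adjusted p threshold of 0.05. Acaa1b, Fabp2 and Fabp1 lie far to the right, Cd36 far to the left, and most oxidation genes lie near 0.

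The difference of the caNrf2 effect between epithelial cells and untreated wall was called for 0 of the 31 genes and 0% of all genes (edgeR; 2 of 31 and 1203 of all genes at an unadjusted p below 0.05; DESeq2 called 1 and 79). Pdk4 had the smallest p of the 31, at -2.15 ± 0.516 (edgeR adjusted p = 0.336). Pdk4 was the gene that DESeq2 called, and it also passed with limma voom. Oxct1 followed in edgeR at -0.48 ± 0.182 (adjusted p = 0.547) and Ppargc1a at -0.94 ± 0.459 (adjusted p = 0.639). Without the pair of epithelial libraries 0 of the 31 and 70 of all genes were called, with Pdk4 at -2.23 ± 0.565 (edgeR adjusted p = 0.0834), Oxct1 at -0.39 ± 0.18 (adjusted p = 0.315) and Ppargc1a at -0.96 ± 0.419 (adjusted p = 0.281). In that fit Acaa1b was at 2.71 ± 0.726 (edgeR adjusted p = 0.0985) and Acads at 0.57 ± 0.21 (adjusted p = 0.206). Acaa1b had only 3 to 13 counts per untreated wall library.

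Other genes of the same pathways were taken from lists chosen with earlier results of these data known. Of 27 further mitochondrial oxidation genes tested in the wall, 5 rose and 8 fell with DSS in transgenic mice and 2 rose and 9 fell in control mice. Slc27a2, a very long chain acyl-CoA synthetase and transporter, fell to 0.65 ± 0.188 CPM in DSS-treated against 5.91 ± 0.890 CPM in untreated transgenic wall, and to 0.77 ± 0.124 CPM against 7.05 ± 0.665 CPM in control wall (log2 fold changes -3.15 in transgenic and -3.10 in control mice). Acsl3, a long-chain acyl-CoA synthetase, fell by 1.47 in transgenic and by 1.39 in control wall on the log2 scale. Acacb, an acetyl-CoA carboxylase whose product malonyl-CoA inhibits the Cpt1 enzymes, rose by 1.75 in transgenic and by 1.51 in control wall on the log2 scale, at 38.4 ± 8.92 CPM in DSS-treated against 11.7 ± 1.77 CPM in untreated transgenic libraries. Cpt1c, a brain-type relative of Cpt1a, rose by 1.33 in transgenic wall, and Ivd, the isovaleryl-CoA dehydrogenase of leucine breakdown, fell by 0.65 in control wall, both on the log2 scale. Neither is particular to that genotype by its values. Cpt1c held 6.19 to 12.8 CPM in DSS-treated against 3.97 to 5.66 CPM in untreated control wall. Ivd held 34.3 to 45.96 CPM in DSS-treated against 53.85 to 61.65 CPM in untreated transgenic wall. Every gene said here to have risen or fallen passed edgeR's adjusted threshold of 0.05.

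Of 20 peroxisomal oxidation genes, 2 rose and 3 fell with DSS in transgenic and 1 rose and 3 fell in control wall. Pecr, a trans-2-enoyl-CoA reductase, fell by 1.02 in transgenic and by 0.85 in control wall on the log2 scale. Acox2, the branched-chain acyl-CoA oxidase of bile acid side chains, was the only gene of the 7 lists called higher with caNrf2, in both treatments. It had 2.73 ± 1.25 CPM in transgenic against 0.21 ± 0.102 CPM in control wall with DSS (log2 fold change 3.55 ± 0.473, edgeR adjusted p = 0.0159), and 4.87 ± 2.30 CPM against 0.95 ± 0.234 CPM untreated (2.42 ± 0.413, adjusted p = 0.0265). Of the pyruvate dehydrogenase and angiopoietin-like genes, Pdp1, a pyruvate dehydrogenase phosphatase, was lower with caNrf2 in untreated wall (-1.02 ± 0.196, adjusted p = 0.0394). With DSS, 4 of the 11 tested fell in transgenic and 3 in control wall, Pdhb, Pdhx and Pdha1 of the pyruvate dehydrogenase complex among them in both genotypes.

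Of 8 further ketone body genes tested in the wall, 1 rose and 2 fell with DSS in transgenic and 2 rose and 2 fell in control wall. Acat2, a cytosolic acetoacetyl-CoA thiolase, fell by 1.18 in transgenic and by 0.57 in control wall on the log2 scale. Against untreated wall, 4 of the 8 were called higher and 2 lower in epithelial cells of both genotypes, where 20.0% of all genes were higher and 23.5% lower in transgenic and 18.9% higher and 19.7% lower in control mice.

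Of 16 further PPAR partners and coregulators, 2 rose and 3 fell with DSS in transgenic and 2 rose and 1 fell in control wall. Tfam, a mitochondrial transcription factor, fell by 0.81 in transgenic and by 0.71 in control wall on the log2 scale. Of 19 further PPAR targets tested, 2 rose and 3 fell in transgenic and 3 rose and 5 fell in control wall. Acot1, an acyl-CoA thioesterase, fell by 1.68 in transgenic and by 1.91 in control wall on the log2 scale, and Mgll, the monoacylglycerol lipase, rose by 1.05 in transgenic and by 0.92 in control wall on the log2 scale. Of 14 further genes of fatty acid binding and uptake, 2 rose and 1 fell in transgenic and 2 rose and 3 fell in control wall. Fabp6, the ileal bile acid binding protein, fell by 1.76 in transgenic and by 1.64 in control wall on the log2 scale. These shares stand beside the same background of all genes given above for DSS.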

How the data were processed

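Colon RNA was sequenced in 24 libraries of 6 groups. Per the submitters' processing notes, reads were checked with FastQC and quantified with RSEM 1.2.11 on mm10; no annotation or strand setting is named there. The deposited tables hold, for each of 30383 transcripts, expected counts, TPM and FPKM by the authors. The authors' expected counts (39.2% of transcript values not whole) were summed per gene symbol and rounded; deposited TPM, summed likewise, gave levels between genes, and deposited FPKM, the alternative, moved no rank by more than 1. Within-group pairs of libraries differed by more than sampling noise (36 pairs, lowest chi-square per gene 10.55, genes with at least 20 counts in both).

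Tests used edgeR 4.0.16 (quasi-likelihood F test, TMM scaling, filterByExpr by group, Benjamini-Hochberg adjustment, threshold 0.05) in R 4.3.3, in 3 fits: epithelial libraries (12941 genes), wall libraries (16074 genes), and epithelial with untreated wall libraries (15073 genes). Standard errors are the log2 fold change over the square root of F. CPM use TMM factors over all 24 libraries. The fits were tested on simulated data. Alternatives were other scalings, no filter, DESeq2 1.42.0, limma 3.58.1 voom with quality weights, only the groups compared, a replicate block, the run of file numbers, leaving out libraries, and, chosen after seeing the data, marker sums as a term. The epithelial pair left out was also picked from these data, by its marker sums. The 31 genes and all lists were chosen with earlier results of these data known. For each comparison the text names the genes past the threshold, and of the others Ppara, Pparg, Cpt1a, Bdh1, Pdk4, Angptl4, Fabp1, Fabp2, Cd36 and the 3 with the smallest p; of each other list, up to 4 genes past the threshold, of which some are not reported here. The planned comparison of protein sequences was not made. The design text speaks of triplicates; 4 libraries per group were used.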

Additional observations from a re-analysis of the deposited data

Results flagged for a closer look

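In 29 of the 186 combinations of gene and group, 1 of the 4 libraries lay farther from the other 3 than Dixon's 95% critical value allows. Chance gives about 1 in 20 for independent combinations. Flags from the same library are not independent, and the same count over all genes was not made. The 29 flags therefore do not set these genes apart from others. Most were in epithelial control replicate 3, which held 52.9 CPM of Ppara (others 13.6 to 17.4), 184 CPM of Pparg (72.2 to 83.2) and 59.6 CPM of Ppargc1a (32.3 to 36.9). For the oxidation enzymes it held 206 CPM of Acadl, 218 CPM of Acadm, 407 CPM of Acads, 308 CPM of Acadvl, 399 CPM of Hadha, 269 CPM of Hadhb, 516 CPM of Hadh, 25.8 CPM of Acaa1b, 202 CPM of Acaa2 and 109 CPM of Decr1, each above the other 3 control epithelial libraries. It also held 256 CPM of Bdh1 (126 to 147), 231 CPM of Slc25a20 (43.0 to 55.1), 224 CPM of Etfb (112 to 120.0), 162 CPM of Etfdh (88.9 to 96.5), 2.49 CPM of Fabp1 (0.328 to 0.648) and 647 CPM of Fabp2 (148 to 172).

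Epithelial transgenic replicate 1 lay above the other 3 transgenic epithelial libraries with 202 CPM of Acadm (others 91.6 to 104), 508 CPM of Hadh (271 to 311), 224 CPM of Echs1 (134 to 148), 37.4 CPM of Acaa1b (10.3 to 14.3), 197 CPM of Etfa (101 to 110.3) and 107 CPM of Decr1 (67.3 to 71.7). In both libraries these values stand beside absorptive colonocyte marker sums of 22961 CPM in transgenic replicate 1 and 20934 CPM in control replicate 3, against 1398 to 5064 CPM in the other 6; their part in the values was not tested.

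In the wall, DSS-treated control replicate 1 held 78.8 CPM of Ppargc1a (others 42.6 to 45.6) and DSS-treated control replicate 4 held 58.2 CPM of Cd36 (29.9 to 33.5). Untreated transgenic replicate 2 held 16.8 CPM of Fabp2, where the other 3 held 11.4 CPM. Untreated control replicate 4 held 14.04 CPM of Ppara (6.42 to 7.02).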

How the results depend on the processing

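Of the DSS calls, 8 of 14 in transgenic wall (Acaa2, Acads, Acat1, Cd36, Eci1, Hadh, Pparg, Ppargc1a) and 5 of 11 in control wall (Acads, Acat1, Echs1, Hadh, Pparg) held under all 19 alternatives run. Of the tissue calls, 7 of 10 in transgenic and 6 of 8 in control mice did. Among the 31 genes, limma voom with quality weights called 6 for caNrf2 in epithelial cells (0 in edgeR), 1 in untreated wall (0), 21 for DSS in control wall (11), 16 for tissue in transgenic and 15 in control mice (10 and 8), and 3 for the difference of the caNrf2 effect between tissues (0). DESeq2 called 1 for caNrf2 in untreated wall and 1 for that difference, Pdk4 in both. Without transgenic replicate 1 and control replicate 3 of the epithelial cells, 4 were called for caNrf2 and 13 for tissue in control mice; with the colonocyte marker term 1 was called for caNrf2. Without replicate 4 of every wall group 1 was called for caNrf2 in untreated wall. Leaving out 1 library at a time gave 9 to 17 for DSS in transgenic wall, lowest without untreated or DSS-treated transgenic replicate 2, 8 to 13 for DSS in control wall, and 0 to 1 for caNrf2 in untreated wall. Cpt1a under DSS in control wall turned to -0.001 with only the groups compared, to -0.003 without replicate 4 of every wall group, and ran from -0.075 to 0.201 without single libraries; in transgenic wall it ran from -0.104 to 0.15 without single libraries. The causes were not tested.

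Counts over all genes varied more. For caNrf2 in epithelial cells (0 in edgeR) they were 163 with DESeq2, 1292 with voom, 688 with the colonocyte term, 835 without the pair of libraries and 0 to 24 without single libraries. For caNrf2 in untreated wall (36) they were 233 with DESeq2, 2491 with voom, 10 with only the groups compared, 404 without replicate 4 of every wall group, 19 with the run of file numbers as a term, 62 with the epithelial marker term and 5 to 320 without single libraries. For caNrf2 in DSS-treated wall (15) they were 43 with DESeq2, 0 with voom, 0 without replicate 4 and 0 to 36 without single libraries. For DSS in control wall (6300) voom gave 9501, and for tissue in control mice (5821) it gave 10235. For the genotype difference in the DSS effect (0) they were 36 with DESeq2, 113 with voom, 98 without replicate 4, 1 with the epithelial marker term and 0 to 93 without single libraries. For the difference of the caNrf2 effect between tissues (0) they were 79 with DESeq2, 827 with voom, 5 without replicate 4, 70 without the pair and 0 to 12 without single libraries.

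No pairing by replicate number was seen in how libraries deviated from their group. Same-numbered libraries correlated at -0.558 to 0.281 in epithelial cells and -0.328 to 0.287 in the wall. Libraries with different numbers correlated at -0.555 to 0.756 in epithelial cells and -0.265 to 0.437 in the wall. With only 4 same-numbered pairs in epithelial cells, this cannot exclude pairing. With the replicate number as a block, 9 of the 29 genes were called for DSS in control wall (Ehhadh and Fabp2 lost), 13 in transgenic wall (Etfa lost), 7 for tissue in control mice (Acads lost), 9 in transgenic mice (Ehhadh lost) and 0 for caNrf2 in epithelial cells. Over all genes the block gave 7 calls for caNrf2 in untreated and 0 in DSS-treated wall. Low counts limit Fabp1 and Cd36 in epithelial cells and Fabp1 and Acaa1b in the wall.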
